A study of Mus musculus with 8 samples.

Results

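A pair of FACS-sorted populations from mouse bone marrow stroma, cluster 2 and cluster 5, was compared gene by gene by RNA-seq. The cells came from wild type C57BL/6J mice of 6 weeks of age by the sample labels, and no genotype or treatment differed between the populations. The clusters had been defined by single-cell RNA-seq of marrow cells positive for Sca-1 and PDGFR-alpha. Both were sorted from cells negative for CD31 (an endothelial marker), CD45 (a leukocyte marker) and Ter119 (an erythroid marker). The gates given here were read from the study's gating figure, since its text does not list them by cluster. Cluster 2 was gated as negative for Ly-6C, CD39 and CD24. Cluster 5 was gated as positive for CD54, negative for CD121b and negative for CD24 and Ly-6C. Each library was a pool of sorted cells, so a level is an average over every cell that passed the gate. A lower level of a transcript in such a pool can come from fewer cells of a type or from less of the RNA per cell, and these cannot be told apart. There was 1 library per population and no replicate, so no test between the populations was possible and the intervals given cover counting error only. Of 49315 annotated genes, 10189 were described: those with more than 2 RPKM (reads per kilobase of exon, scaled to the size of the library) and at least 50 counts in at least 1 of the 2 libraries. Of these, 8164 met both limits in both libraries, 1396 in cluster 2 alone and 629 in cluster 5 alone.

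Bone marrow stroma holds progenitors of bone, cartilage and fat and the reticular cells that feed blood formation. Chondrocytes, the cells of cartilage, build a matrix of collagen II, IX and XI fibrils filled with the proteoglycan aggrecan, under the transcription factor Sox9, and switch to collagen X when they enlarge before bone replaces them. Erythroid cells in the same marrow make haem in a pathway opened by Alas2 and fill themselves with haemoglobin before they lose their nucleus. Cholesterol is made from acetyl units by the mevalonate pathway, whose genes are driven together by the transcription factor SREBP-2.

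The 2 libraries differed in depth and in what their reads fell on. Cluster 2 had 25349917 counts and cluster 5 had 12833648. The Rn18s-rs5 locus (a ribosomal RNA sequence), mmu-mir-689-2 and Lars2 held 10.4% of all counts in cluster 2 and 34.8% in cluster 5. In the 5 other sorted libraries they held between 0.274% and 1.91%, so both libraries stood apart and cluster 5 the more so. Haemoglobin took 1.01% of all counts in cluster 2 and 5.21% in cluster 5. These loci and the haemoglobin genes, 16 genes in all, were left out of the levels below, which left 22463044 counts in cluster 2 and 7695179 in cluster 5. Mitochondrially encoded genes then took 1.03% of the kept counts in cluster 2 (Wilson 95% interval 1.03% to 1.04%) and 5.14% in cluster 5 (5.12% to 5.15%). A further sign of difference between the libraries was olfactory receptor genes, known for their role in smell: 26 of 858 had 3 or more counts in cluster 2 (3.03%) and 240 in cluster 5 (28.0%), although cluster 5 was the shallower library. The part of these library differences in the gene differences below was not tested.

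**Figure D1:**
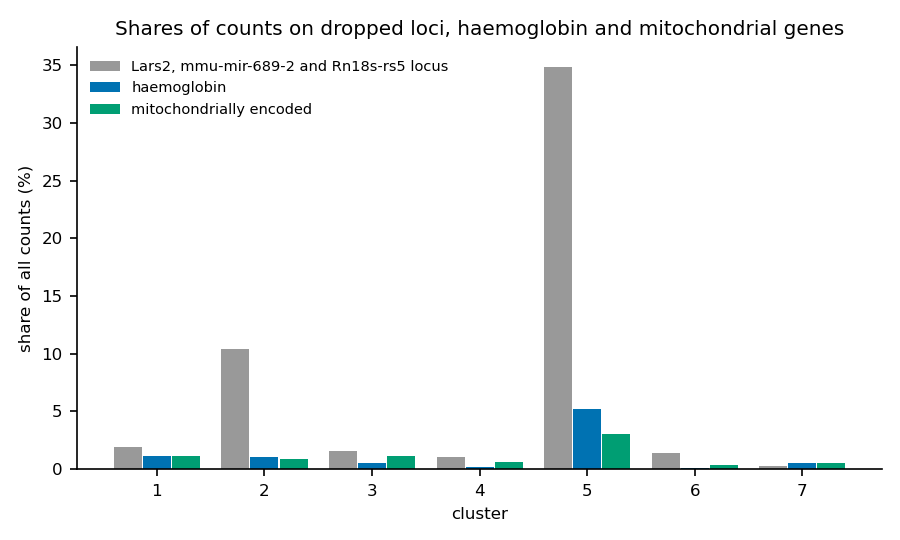
Share of all counts, in percent, that fell on the 3 dropped loci, on haemoglobin genes and on mitochondrially encoded genes in each of the 7 sorted libraries. Cluster 5 has the tallest bar of every kind (34.8% on the 3 loci) and cluster 2 has the next tallest for the 3 loci (10.4%).

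Levels were correlated between the 2 libraries across the 10189 genes (Pearson r = 0.897 on log2 of RPKM + 1; genes are not independent replicates). The log2 ratio of RPKM + 1, cluster 2 over cluster 5, had a median of 0.18 and quartiles of -0.21 and 0.55. The ratio was more than 2-fold toward cluster 2 for 877 genes (8.61% of those described) and more than 2-fold toward cluster 5 for 410 (4.02%). The tail was longer toward cluster 2: 176 genes passed 4-fold and 28 passed 16-fold there, against 69 and 3 toward cluster 5. The split of these genes depended on the scaling. Toward cluster 2 lay 68.1% of them with TMM factors (trimmed mean of M values), 54.5% with totals of the kept counts and 90.6% with totals of all counts, where no gene was dropped either. List medians below are therefore read against the median of 0.18.

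**Figure D2:**
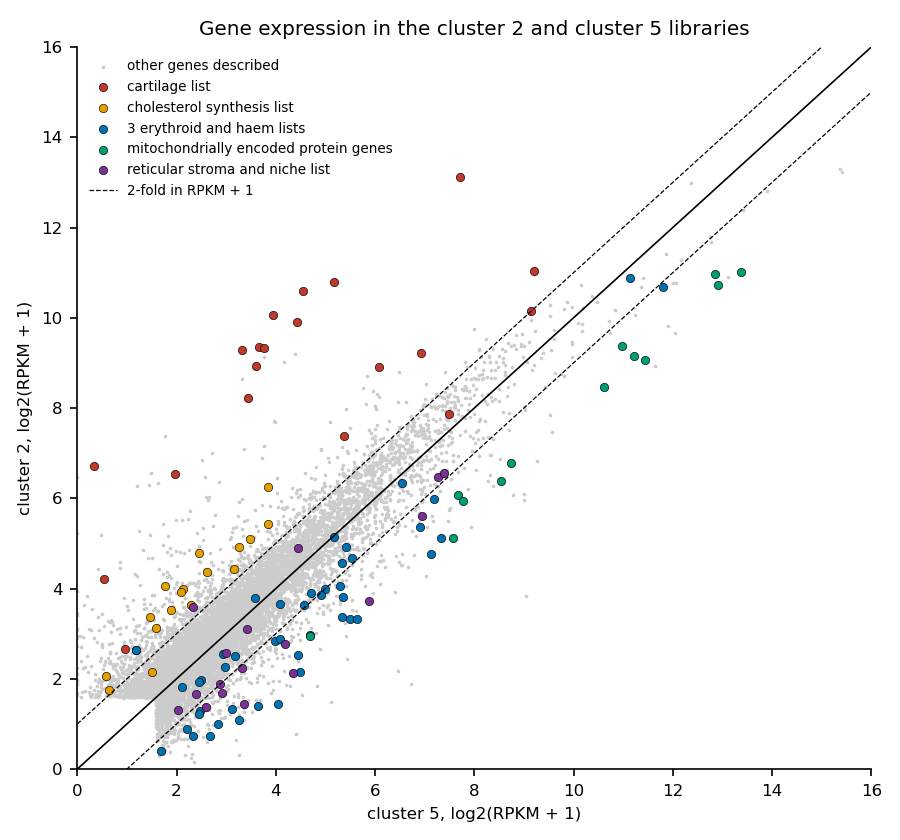
Level of each described gene as log2(RPKM + 1) in cluster 5 (horizontal) and cluster 2 (vertical), 1 point per gene; the solid line is equality and the dashed lines mark 2-fold. Cartilage genes stand far above the upper line, cholesterol synthesis genes lie mostly above it, and mitochondrially encoded genes and many erythroid genes lie below the lower line.

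Cartilage genes had the highest median log2 ratio of the lists read. Of 21 cartilage genes listed, all were described, 20 were more than 2-fold higher in cluster 2 and none in cluster 5, with a median log2 ratio of 4.78. Their summed level was 21862 RPKM in cluster 2 and 1921 RPKM in cluster 5. Col2a1, the fibrillar collagen of cartilage (chromosome 15, 97975602 to 98004695, minus strand, GRCm38), stood at 8915 RPKM in cluster 2 and 209 RPKM in cluster 5, from 1309958 and 11702 counts. It was 42.6-fold higher in cluster 2 (95% interval 41.8 to 43.4) and took 5.83% of the kept counts there, against 0.152% in cluster 5. In clusters 1, 3, 4, 6 and 7 Col2a1 stood at 177, 146, 3299, 13982 and 184 RPKM. Cluster 5 was thus among the 4 libraries with little Col2a1, and cluster 2 was second to cluster 6.

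The collagen IX chains, which coat the collagen II fibril, moved together. Col9a1 stood at 653 and 11.7 RPKM in clusters 2 and 5, Col9a2 at 1064 and 14.4 RPKM, and Col9a3 at 1540 and 22.3 RPKM. Acan, which encodes aggrecan, was at 297 RPKM in cluster 2 and 9.90 RPKM in cluster 5, a 30.0-fold difference (27.9 to 32.4), and Hapln1, the link protein that ties aggrecan to hyaluronan, was at 487 and 11.2 RPKM. Matn1, a matrilin of cartilage matrix, had 5137 counts in cluster 2 and 5 in cluster 5, which gave 105 and 0.268 RPKM and a ratio of 391 (167 to 1212). Col10a1, the collagen of hypertrophic chondrocytes, was at 622 and 8.98 RPKM (69.3-fold, 61.3 to 78.5). Ihh, the signal sent by chondrocytes as they begin to enlarge, was at 17.6 and 0.458 RPKM. Genes of both resting or dividing and enlarged chondrocytes were therefore on the cluster 2 side. Comp was at 2086 and 590 RPKM, Chad at 1135 and 562 RPKM and Prg4, the lubricin of joint surfaces, at 234 and 180 RPKM, within 2-fold. Among the regulators, Sox9 was at 165 and 40.4 RPKM (4.08-fold, 3.87 to 4.30), Sox5 at 5.29 and 0.948 RPKM and Sox6 at 5.19 and 1.27 RPKM. The ratio of Sox9 was lower than those of Col2a1, Col9a1, Col9a2, Col9a3 and Col10a1 and near that of Col11a2 (595 and 121 RPKM).

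The gene with the highest log2 ratio was Il17b (6.48), a cytokine of the interleukin 17 family, with 1497 counts in cluster 2 and 0 in cluster 5. Set against the limit of 3 counts that a count of 0 allows in cluster 5, it was at least 190-fold higher in cluster 2. It was at 88.4 RPKM in cluster 2, 43.0 in cluster 6 and between 0.291 and 1.92 in the other 4 libraries with a count. Fam25c likewise had 368 and 0 counts, at least 46.7-fold higher. By the rule for named genes, the 20 highest log2 ratios were completed by Col9a2, Col9a3, Col10a1, Col9a1, Matn1, Matn3, Snorc, Cnmd, Col2a1, Hapln1 and Acan from the cartilage list and by Fxyd2, Mia1, Ucma, Panx3, Krt16, Scrg1 and Ppa1. Of these last 7, Ucma and Mia1 are secreted cartilage proteins and Panx3 is a channel protein of chondrocytes and osteoblasts. Ucma stood at 398 and 8.98 RPKM, Mia1 at 560 and 12.5 RPKM and Panx3 at 93.6 and 1.78 RPKM. The lowest log2 ratio among the 20 was 4.78, that of Acan.

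Signals known to act on the growth plate were read next. Of 11 described Hedgehog and PTHrP genes (of 15 listed), 4 were more than 2-fold higher in cluster 2 and none in cluster 5. They were Ihh, the Hedgehog receptor and target Ptch1 (8.08 and 1.37 RPKM), the Hedgehog-binding protein Hhip (6.57 and 1.78 RPKM) and the PTH and PTHrP receptor Pth1r. Pth1r stood at 416 RPKM in cluster 2 and 56.5 RPKM in cluster 5 (7.36-fold, 6.99 to 7.75), beside 466 RPKM in cluster 6 and 20.2 to 70.4 RPKM in the other 4. The target Gli1 was within 2-fold (2.42 and 1.90 RPKM), as was the ligand Pthlh (12 and 18.6 RPKM). Of 27 described BMP and TGF-beta genes, 4 were higher in cluster 2 (8.61% of all genes were) and 1 in cluster 5 (4.02% of all genes were). Their median of 0.05 was below that of all genes and fell to -0.03 with DESeq2 size factors and -0.08 with totals of kept counts. The 4 were the BMP antagonist Nog (28.6 and 2.66 RPKM), the ligands Bmp7 (11.7 and 1.76 RPKM) and Bmp6 (11.0 and 4.05 RPKM), and the antagonist Chrdl1 (14.0 and 5.40 RPKM). The exception was Fst, the activin antagonist follistatin, at 9.98 and 27.5 RPKM.

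Wnt genes went both ways. Of 26 described, 8 were more than 2-fold higher in cluster 2 and 3 in cluster 5, against 8.61% and 4.02% of all described genes. Their median of 0.11 turned to -0.03 with totals of kept counts. The 8 included the ligands Wnt4 (19.1 and 2.30 RPKM), Wnt5b (13.8 and 2.67 RPKM), Wnt10b (3.04 and 0.506 RPKM) and Wnt11 (17.1 and 7.39 RPKM), the Wnt-enhancing R-spondin Rspo3 (10.8 and 1.53 RPKM) and the secreted Wnt inhibitor Notum (10.5 and 4.63 RPKM). The 3 toward cluster 5 were the secreted inhibitors Sfrp2 (48.0 and 141 RPKM) and Dkk2 (2.41 and 7.15 RPKM) and the receptor Fzd1 (5.53 and 13.8 RPKM).

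Bone genes did not follow the cartilage genes. Of 19 described osteoblast lineage genes, 2 were more than 2-fold higher in cluster 2 (Pth1r and Ibsp, 740 and 302 RPKM). In cluster 5, 1 was higher, and 16 lay within 2-fold. Over all described genes, 8.61% were higher in cluster 2 and 4.02% in cluster 5. The list median of -0.33 turned to 0.04 with totals of all counts. The 1 higher in cluster 5 was Bglap, which encodes osteocalcin, at 3288 and 7018 RPKM. Bglap shares near-identical sequence with Bglap2 and Bglap3, so the split of reads among them is uncertain. Col1a1, the main bone collagen, was at 3556 and 6890 RPKM, and Spp1, osteopontin, at 1185 and 1173 RPKM. The study treats Runx2 and Cbfb as regulators of cluster 2. Runx2, the osteoblast master regulator, was at 11.5 and 6.09 RPKM and its partner Cbfb at 34.8 and 22 RPKM. Both lay within 2-fold. Of 14 tendon and ligament genes, 2 were higher in cluster 2 and 1 in cluster 5, against 8.61% and 4.02% of all described genes. Scx, a tendon transcription factor, was at 34.9 and 25.4 RPKM.

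**Figure D3:**
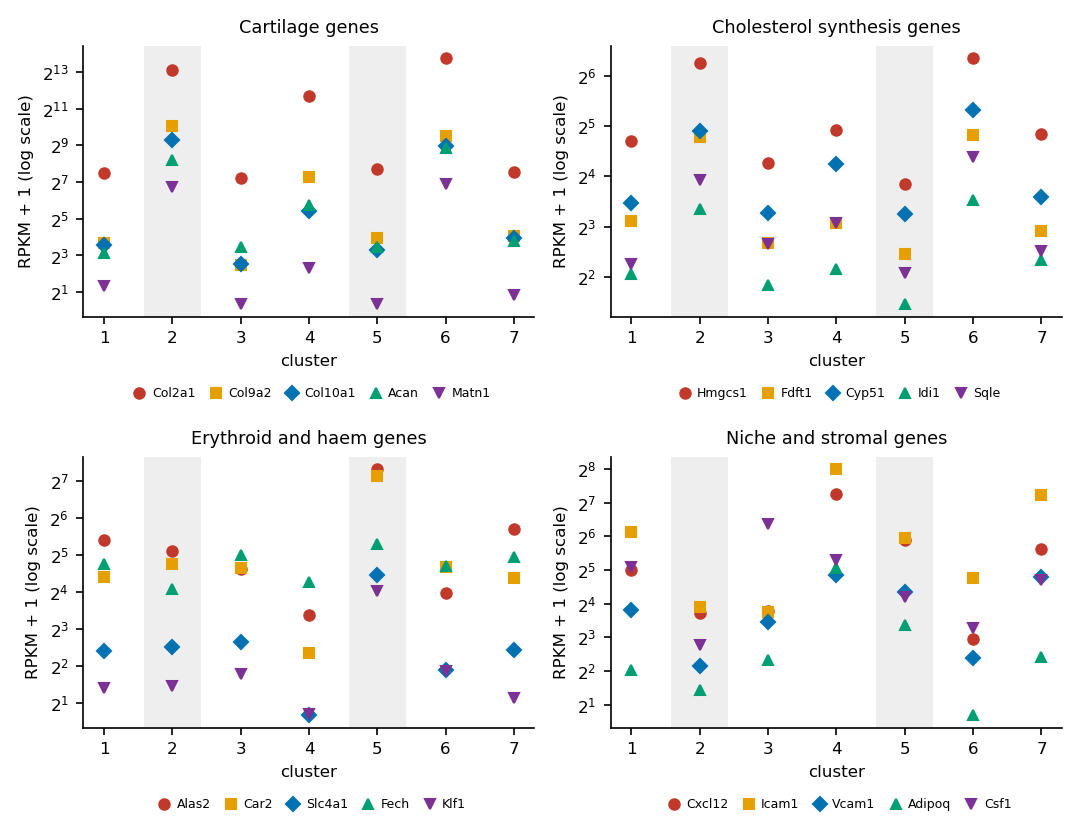
Level (RPKM + 1, log2 axis) of 5 genes from each of 4 groups in the 7 sorted libraries, 1 point per library; grey bands mark clusters 2 and 5. Cartilage and cholesterol synthesis genes are high in clusters 2 and 6, and the whole cartilage list has its next highest sum in cluster 4 (11320 RPKM). The 5 erythroid and haem genes have their highest value in cluster 5. Icam1 was part of the cluster 5 gate and is higher in clusters 1, 4 and 7 than in cluster 5.

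Cholesterol synthesis genes were higher in cluster 2 almost as a block. Of 18 listed, 17 were described and 16 of these were more than 2-fold higher in cluster 2, with a median log2 ratio of 1.63; the other, Dhcr7, was within 2-fold (3.46 and 1.84 RPKM), and 1 gene was below the limits. The differences ran along the pathway. Hmgcs1, which makes HMG-CoA, stood at 75.4 RPKM in cluster 2 and 13.3 RPKM in cluster 5 (5.65-fold, 5.11 to 6.27). Idi1 and Fdps, which make the isoprenoid units, were at 9.26 and 1.74 RPKM and at 15.6 and 2.42 RPKM. Fdft1 and Sqle, which commit them to sterols, were at 26.7 and 4.50 RPKM and at 14.2 and 3.23 RPKM, and Cyp51, a sterol demethylase, was at 29.1 and 8.53 RPKM. The sterol sensor partner Insig1 was at 41.8 and 13.4 RPKM and Srebf2, which encodes SREBP-2, was at 20.6 and 7.98 RPKM. Both libraries took part in the difference. Hmgcs1 was at 18.2 to 29.3 RPKM in clusters 1, 3, 4 and 7, which put cluster 5 below them and cluster 2 above them, and at 81.2 RPKM in cluster 6. The summed level of the list was 339 RPKM for cluster 2 and 85.5 RPKM for cluster 5, beside 412 RPKM for cluster 6 and 119 to 171 RPKM for the other 4.

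The promoters of this list were searched for motifs chosen after sequences had been seen, so the shares are a description. CCAAT, the box bound by the factor NF-Y, was found on either strand within 250 bases upstream of the RefSeq start in 11 of 14 promoters of the 11 list genes in the RefSeq table (78.6%), against 33.8% of all 32851 promoters. It was in 27.3% of the 22 promoters of the cartilage list, in 7 of 14 of the erythroid membrane list, in 6 of 15 of the haem list and in 10 of 25 of the erythroid regulator list. Some genes have several promoters in the table, and these can overlap. The sterol element letters TCACNCCAC were in 1 of the 14 promoters (7.14%), against 1.05% of all promoters and 2 of 22 of the cartilage list. A match of letters is not a binding site. The promoters of Hmgcs1 (chr13:119690101-119690350), Insig1 (chr5:28071162-28071411) and Idi1 (chr13:8885356-8885605), each on the plus strand of GRCm38.p6, are printed because their genes span the pathway from its entry to its feedback; capitals mark CCAAT or its reverse complement ATTGG and, in Hmgcs1, also TCACCCCAC.
Hmgcs1: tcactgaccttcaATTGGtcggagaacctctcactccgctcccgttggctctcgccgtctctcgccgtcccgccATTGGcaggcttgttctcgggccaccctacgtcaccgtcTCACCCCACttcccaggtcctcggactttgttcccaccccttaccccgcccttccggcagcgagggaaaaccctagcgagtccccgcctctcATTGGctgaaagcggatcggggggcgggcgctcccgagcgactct
Insig1: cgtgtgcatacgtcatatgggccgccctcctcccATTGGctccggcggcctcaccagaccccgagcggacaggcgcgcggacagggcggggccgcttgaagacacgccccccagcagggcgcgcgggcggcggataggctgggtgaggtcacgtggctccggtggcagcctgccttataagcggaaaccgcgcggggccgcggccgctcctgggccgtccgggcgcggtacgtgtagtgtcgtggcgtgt
Idi1: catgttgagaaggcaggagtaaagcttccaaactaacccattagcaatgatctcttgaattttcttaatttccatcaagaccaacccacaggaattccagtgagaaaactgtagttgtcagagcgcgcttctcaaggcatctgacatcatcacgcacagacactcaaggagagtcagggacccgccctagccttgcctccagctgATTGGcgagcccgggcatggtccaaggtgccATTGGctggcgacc
Hmgcs1 held 3 CCAAT boxes and 1 sterol element in this window, Idi1 held 2 boxes and Insig1 held 1.

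Enzymes of glucose breakdown and of collagen maturation leaned to cluster 2. Of 22 described hypoxia and glycolysis genes, 9 were more than 2-fold higher in cluster 2 and 1 in cluster 5, with a median of 0.70. Pgk1 was at 110 and 32.8 RPKM, Tpi1 at 181 and 57.8 RPKM, Ldha, which makes lactate, at 520 and 222 RPKM and Bnip3, a hypoxia-induced mitophagy receptor, at 44.9 and 9.66 RPKM. The 1 toward cluster 5 was the hypoxia target Ndrg1 (15.8 and 35.6 RPKM), and Vegfa was within 2-fold (38.1 and 33.1 RPKM). Of 20 collagen processing genes, 7 were higher in cluster 2 and none in cluster 5, with a median of 0.84. Pcolce2, an enhancer of procollagen cleavage, was at 136 and 9.30 RPKM and the crosslinking enzyme Loxl4 at 39.5 and 4.79 RPKM. The hydroxylases P3h1 (84.9 and 26.8 RPKM) and Plod2 (132 and 42.4 RPKM) were also higher in cluster 2. The crosslinking enzymes Lox (54.7 and 97.8 RPKM) and Loxl1 (17.7 and 33.0 RPKM) were within 2-fold with the higher value in cluster 5.

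Calml3, a calmodulin-like calcium sensor known from epithelia, was near 0 in cluster 5. It had 467 counts in cluster 2 (13.4 RPKM) and 2 in cluster 5 (0.150 RPKM), a ratio of 88.9 with an interval of 24.5 to 736. Clusters 1, 4, 6 and 7 had 0.0804, 1.05, 2.23 and 0.0420 RPKM, and cluster 3 had no count. Of the calmodulin genes themselves, Calm2 was at 665 and 513 RPKM and Calm3 at 36.2 and 25 RPKM, both within 2-fold. Of the 20 epithelial and keratinocyte genes, only 5 reached the limits, and 3 of them were more than 2-fold higher in cluster 2, namely Calml3, Sfn (115 and 4.72 RPKM) and Epcam (6.01 and 0.316 RPKM). The defining keratins Krt5 and Krt14 had 3 and 25 counts in cluster 2 and 0 in cluster 5, under 1 RPKM, and Trp63, the epidermal regulator, had 13 and 5 counts. The other 15 listed genes, these included, were below the limits in both libraries. Krt16, a keratin outside the list and among the 20 highest log2 ratios, was at 76.3 and 1.30 RPKM. Sfn, like Calml3, was next highest in cluster 6 (81.6 RPKM).

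Skeletal muscle genes were higher in cluster 2 as well. Of 16 listed, 10 were described and 9 were more than 2-fold higher in cluster 2, with a median of 1.68. The most abundant, the actin Acta1, was at 72.1 and 29.6 RPKM, and the fast troponin Tnni2 was at 61.7 and 5.23 RPKM. The summed level of the list was 275 RPKM for cluster 2 and 77.3 RPKM for cluster 5, beside 151 RPKM for cluster 6, 104 RPKM for cluster 3 and less than 17 RPKM for clusters 1, 4 and 7. The muscle stem cell regulators Pax7 and Myod1 had at most 7 counts in either library.

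**Figure D4:**
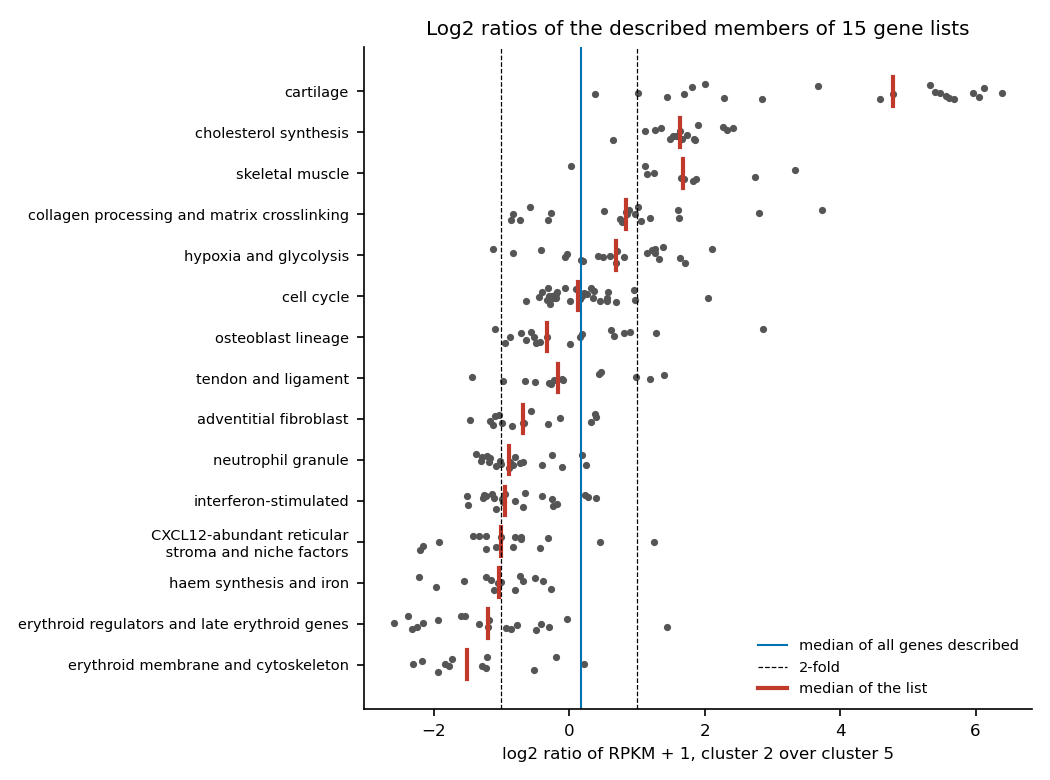
Log2 ratio of RPKM + 1, cluster 2 over cluster 5, for the described members of 15 gene lists, 1 point per gene (vertical scatter is only for visibility); red bars are list medians, the blue line is the median of all described genes (0.18) and dashed lines mark 2-fold. Cartilage has the highest median (4.78) and erythroid membrane genes the lowest (-1.50).

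Erythroid genes were higher in cluster 5, a population sorted as Ter119-negative. Of 12 described membrane and cytoskeleton genes (16 listed), 9 were more than 2-fold higher in cluster 5 and none in cluster 2, with a median of -1.50. Of 14 haem synthesis and iron genes, 8 were higher in cluster 5 and none in cluster 2, with a median of -1.03. Of 19 described erythroid regulators and late genes (23 listed, 22 matched), 11 were higher in cluster 5 and 1 in cluster 2, with a median of -1.20. The exception was Sox6, which is also a cartilage gene. Across alternative settings, Alad, Urod, Fth1, Slc25a37 and Fech did not stay past 2-fold (weakest log2 ratios -0.61, -0.66, -0.70, -0.76 and -0.82). Nor did Gypc, Kel, Zfpm1 and Prdx2 of the other lists. At their weakest, the medians of the membrane, haem and regulator lists were -1.21, -0.63 and -0.84.

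Alas2, which makes the first intermediate of haem in erythroid cells (chromosome X, 150547375 to 150570638, plus strand), was at 33.8 RPKM in cluster 2 and 160 RPKM in cluster 5, from 1990 and 3594 counts. The log2 ratio was -2.21, and Alas2 was 4.74-fold higher in cluster 5 (4.49 to 5.01). In clusters 1, 3, 4, 6 and 7 it stood at 41.2, 23.6, 9.33, 14.6 and 50.9 RPKM. Cluster 5 was the highest of the 7 libraries, while cluster 2 lay within the range of the others. Of the later enzymes, Fech, which inserts the iron, was at 15.8 and 38.1 RPKM and Alad at 14.9 and 31.0 RPKM, whereas Uros (2.92 and 4.59 RPKM) and Ppox (4.69 and 8.10 RPKM) were within 2-fold. The ferritin chains, which every cell type uses, were at 1651 and 3559 RPKM for Fth1 and 1874 and 2256 RPKM for Ftl1. The 250 bases upstream of the RefSeq start of Alas2 (chrX:150547167-150547416, plus strand, GRCm38.p6) are shown because they hold 1 match to AGATAA, the letters read by the erythroid factor Gata1; capitals mark it as its reverse complement TTATCT.
Alas2: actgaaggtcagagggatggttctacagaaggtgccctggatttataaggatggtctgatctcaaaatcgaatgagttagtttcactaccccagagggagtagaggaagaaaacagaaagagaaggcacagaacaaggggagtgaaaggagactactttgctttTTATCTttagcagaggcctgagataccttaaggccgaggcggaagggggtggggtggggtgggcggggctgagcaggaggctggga
AGATAA on either strand was in 9.99% of all promoters of this length, in 1 of 15 promoters of the haem list (6.67%), 3 of 14 of the membrane list (21.4%) and 5 of 25 of the regulator list. It was also in 4 of 22 promoters of the cartilage list (18.2%).

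Among the membrane genes, the anion exchanger Slc4a1 was at 4.73 and 20.9 RPKM and the Rh proteins Rhd and Rhag at 6.87 and 25 RPKM and at 0.995 and 6.10 RPKM. Tfrc, the transferrin receptor of many dividing cells, and Aqp1, also an endothelial water channel, were within 2-fold. Among the regulators, Klf1, the erythroid Krüppel-like factor, was at 1.74 RPKM in cluster 2 and 15.4 RPKM in cluster 5 (8.89-fold, 6.71 to 11.9). Gata1 was at 0.854 and 3.65 RPKM and the erythropoietin receptor Epor at 0.657 and 5.34 RPKM. The carbonic anhydrases Car2 and Car1 were at 26.2 and 140 RPKM and at 9.03 and 43.9 RPKM. Both early genes, such as Gata1 and Epor, and late genes, such as Slc4a1, were thus higher in cluster 5. Of the haemoglobin genes left out of the scaling, Hba-a1 was 8.15-fold and Hbb-b1 5.31-fold higher in cluster 5; Hba-a1 and Hba-a2 are near-identical, so their split is uncertain.

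By the rule for named genes, the 20 lowest log2 ratios held 12 protein-coding genes of the nucleus, among them Cldn13 (1.80 and 33.6 RPKM, the lowest at -3.63), Ctse (2.11 and 22.1 RPKM), Slc38a5 (0.565 and 8.19 RPKM), Klf1, Car2, Trim10 (3.47 and 21.3 RPKM) and Hemgn (1.63 and 11.5 RPKM). Cldn13 is a claudin found in mouse red cell precursors, Ctse is a protease found in red cells, and Hemgn is a nuclear protein of blood precursors. Among the others were Hmox1, which breaks haem down and is abundant in macrophages (18.5 and 130 RPKM), the platelet chemokine Ppbp (2.64 and 17.5 RPKM), Igfbp2 (2.57 and 18.4 RPKM) and Dlk1 (1.39 and 10.5 RPKM), a surface protein of preadipocytes and other progenitors. Hmox1 was higher still in cluster 4 (309 RPKM), and Igfbp2 in clusters 1 and 4 (26.1 and 22.5 RPKM), so these 2 were not at their highest in cluster 5. The remaining 8 were mt-Atp8, mt-Nd4, mt-Cytb, the small nuclear RNA 7SK and 4 short loci named only by their clone, AC149599.1, AC156953.1, AC027184.1 and CT025673.1. The 7SK locus was at 113 and 610 RPKM.

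All 13 protein genes of the mitochondrial genome were more than 2-fold higher in cluster 5, with a median of -2.07; this family was added after values had been seen. The log2 ratios lay between -1.60 (mt-Nd3) and -2.43 (mt-Atp8, which overlaps mt-Atp6). Mt-Co1 stood at 1683 and 7706 RPKM and mt-Cytb at 2075 and 10562 RPKM. In the other 5 libraries mt-Cytb lay between 1260 and 3168 RPKM, which put cluster 2 inside their range and cluster 5 above it. Ribosomal protein genes, a family added in the same way, had a median of 0.63. Of 81 described, 5 were more than 2-fold higher in cluster 2, a share below the 8.61% of all genes, none was in cluster 5 and 78 lay above the median of all genes. Described genes with 200 to 1000 bases of exon, whatever their family, had a median of 0.38.

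Genes of the factors by which marrow stroma feeds blood cells leaned to cluster 5. Of 20 listed genes of CXCL12-abundant reticular cells and niche factors, 17 were described. Of these, 9 were more than 2-fold higher in cluster 5, 1 (Bmp6) in cluster 2 and 7 lay within 2-fold, with a median of -1.01. Lepr, Lpl, Esm1, Kitl and Gas6 did not stay past 2-fold across alternative settings (weakest log2 ratios -0.65, -0.71, -0.87, -0.88 and -0.93). At its weakest, the list median was -0.65. The summed level of the list was 321 RPKM for cluster 2 and 623 RPKM for cluster 5. It was 592, 608, 1111, 359 and 803 RPKM for clusters 1, 3, 4, 6 and 7. Cxcl12, the chemokine that holds stem cells in the marrow, was at 12.1 RPKM in cluster 2 and 57.8 RPKM in cluster 5 (4.76-fold, 4.53 to 5.0). Across clusters 1, 3, 4, 6 and 7 it stood at 30.9, 12.8, 151, 6.69 and 48.2 RPKM. Cluster 2 was thus among the 3 lowest libraries and cluster 5 was second to cluster 4. Vcam1, an adhesion molecule also found on marrow macrophages, was at 3.40 and 19.2 RPKM, Adipoq at 1.72 and 9.32 RPKM, the macrophage growth factor Csf1 at 5.86 and 17.3 RPKM, stem cell factor (Kitl) at 1.60 and 5.06 RPKM and the leptin receptor Lepr at 2.67 and 6.38 RPKM. Foxc1 and Ebf1, transcription factors of reticular cells, were within 2-fold (28.9 and 20.7 RPKM, 4.93 and 7.0 RPKM).

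Transcripts of the sorting markers followed the gates, as read from the gating figure, only in part. Icam1, which encodes CD54 and so was used to choose cluster 5, was at 14.0 and 61.2 RPKM and is no finding. Il1r2, which encodes CD121b, was at 45.0 RPKM in cluster 2 and 106 RPKM in cluster 5 although cluster 5 was gated as negative for it. Cd24a was at 130 and 108 RPKM and Ly6c1 at 34.1 and 37.4 RPKM in populations gated as negative for both antigens, and Entpd1, which encodes CD39, was at 3.21 and 6.67 RPKM. Of the markers of the parent fraction, Ly6a, which encodes Sca-1, was at 81.1 and 120 RPKM. Pdgfra, which encodes PDGFR-alpha, was more than 2-fold higher in cluster 5 (4.53 and 10.3 RPKM, log2 ratio -1.04). Its log2 ratio lay between -1.19 and -0.66 across settings, so Pdgfra did not stay past 2-fold in all of them. Ptprc, which encodes CD45, was low in both (2.67 and 2.47 RPKM) and Pecam1, which encodes CD31, was at 1.98 and 5.29 RPKM.

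Markers of other cell types that a marrow sort could carry were read in the same way. Neutrophil granule genes were abundant in both libraries, with a summed level of 18161 RPKM in cluster 2 and 38567 RPKM in cluster 5, led by S100a9 (7205 and 15191 RPKM). Of these 20 genes, 9 were more than 2-fold higher in cluster 5 and none in cluster 2, with a median of -0.88, and none was at 0. None of the 9 stayed past 2-fold in every alternative setting. At their weakest, S100a9, Ltf and Camp had log2 ratios of -0.66, -0.78 and -0.88, and the list median was -0.48. Elane was at 166 and 179 RPKM, Mpo at 70.5 and 93.2 RPKM, Ltf at 181 and 413 RPKM and Camp at 1734 and 4254 RPKM. Of 12 described monocyte and macrophage genes, 4 were higher in cluster 5, among them C1qb (4.43 and 13.4 RPKM) and C1qc (1.23 and 6.89 RPKM); their summed level was 1059 and 1833 RPKM, led by Lyz2. Adgre1 was at 0.642 and 2.35 RPKM, and Marco was listed at 0 in cluster 2. Of 10 described endothelial genes, 4 were higher in cluster 5, with Cldn5 at 3.87 and 14.2 RPKM and a summed level of 47.6 and 93.3 RPKM, led by Fabp4. The part of these cells in the other differences was not tested.

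Of 21 described interferon-stimulated genes, 8 were more than 2-fold higher in cluster 5, none in cluster 2 and 13 within 2-fold. Their median was -0.95. Isg15 was at 17.7 and 51.9 RPKM and Irf7 at 1.75 and 5.65 RPKM. Cmpk2, Gbp2, Irf7, Oas1a, Rsad2 and Rtp4 did not stay past 2-fold across alternative settings. At its weakest, the list median was -0.32. The summed level of the list was 137 RPKM for cluster 2 and 233 RPKM for cluster 5. It was 270, 179, 276, 111 and 310 RPKM for clusters 1, 3, 4, 6 and 7. Of 22 described chemokines and cytokines, 7 were higher in cluster 5, 1 in cluster 2 and 14 within 2-fold, with a median of -0.76. Ccl2, Cxcl10, Cxcl14 and Cx3cl1 did not stay past 2-fold across alternative settings, and the list median was -0.36 at its weakest. The summed level of this list was 640 RPKM for cluster 2 and 1222 RPKM for cluster 5. Clusters 1, 3, 4 and 7 were above both (2236, 4190, 2620 and 2029 RPKM) and cluster 6 was below both (446 RPKM). Cxcl1, a neutrophil attractant, was at 91.2 and 317 RPKM, Il6 at 18.2 and 60.7 RPKM and Ccl2 at 49.7 and 118 RPKM. The exception was Il11, a cytokine of the Il6 family, at 44.7 RPKM in cluster 2 and 2.99 RPKM in cluster 5 (log2 ratio 3.52). Of 17 NF-kB targets and inhibitors, 3 were higher in cluster 5 and 14 within 2-fold, with a median of -0.28 that turned to 0.10 with totals of all counts.

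Of 14 described matrix proteases and inhibitors, 6 were more than 2-fold higher in cluster 5, 1 in cluster 2 and 7 within 2-fold, and the summed levels were 1591 and 1669 RPKM. The 6 were proteases, among them the collagenase Mmp13 (116 and 366 RPKM), the stromelysin Mmp3 (44.2 and 142 RPKM) and Adamts1 (23.5 and 68.5 RPKM). The 1 higher in cluster 2 was the protease inhibitor Timp1, at 866 and 253 RPKM. Mmp13 is also a gene of hypertrophic chondrocytes, and it went opposite to Col10a1. Of 22 fibrillar and other collagens, 4 were higher in cluster 5 and 2 in cluster 2, against 4.02% and 8.61% of all described genes. The 4 included the basement membrane chains Col4a1 (12.9 and 38.6 RPKM) and Col4a2 (11.8 and 34.4 RPKM). The 2 higher in cluster 2 were Col11a1 and Col11a2, which are also on the cartilage list. Of 15 described adventitial fibroblast genes, 5 were higher in cluster 5 and none in cluster 2, with Dpt at 23.4 and 66.3 RPKM and Lum at 415 and 889 RPKM. Lum, Mfap5, Has1 and Pdgfra did not stay past 2-fold across alternative settings. The summed level of the list was low in both libraries, 2939 RPKM for cluster 2 and 5080 RPKM for cluster 5. It was 13996, 14828, 17647, 4202 and 15640 RPKM for clusters 1, 3, 4, 6 and 7.

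The counts of the remaining lists are read against the shares of all described genes, 8.61% higher in cluster 2 and 4.02% in cluster 5. Of 32 cell cycle genes, 31 were within 2-fold and the other, the cell cycle inhibitor Cdkn1c (log2 ratio 2.05), was higher in cluster 2. Of 24 described immediate early genes, 23 were within 2-fold, and of 14 described B lineage genes, 12 were. Heat shock and chaperone genes had 2 of 16 higher in cluster 5 and none in cluster 2. Their median of -0.37 turned to 0.04 with totals of all counts. Of 12 described mineralisation genes, 2 were higher in cluster 2, the sphingomyelinase Smpd3 (186 and 44 RPKM) and the exchanger Slc8a3 (17.6 and 5.57 RPKM), and of 9 osteocyte genes 2 were, Slc13a5 and Ackr3. Of 11 described adipocyte genes and of 9 progenitor genes, 1 each was higher in cluster 5, and of 15 integrated stress response genes 2 were; the medians of the progenitor (-0.14) and stress response lists (-0.09) turned to 0.27 and 0.28 with totals of all counts. Tnfsf11, which encodes RANKL, was within 2-fold (3.05 and 6.0 RPKM), as was its decoy receptor Tnfrsf11b (24.9 and 12.7 RPKM), and the 8 described Hox genes were all within 2-fold. Markers of osteoclasts, plasma cells, T and NK cells and Schwann cells each had 1 member higher in cluster 2 and none in cluster 5, of 6, 5, 6 and 3 described. Pericyte markers and mast cell, basophil and eosinophil markers had 1 each way, of 9 and 8, and megakaryocyte markers had 1 higher in cluster 2 and 2 in cluster 5, of 5. Of 17 described replication-dependent histone genes, a family added after values had been seen, 1 was higher in cluster 2 and 4 in cluster 5.

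Of the 877 genes higher in cluster 2, 524 had their highest level of the 7 libraries in cluster 2, 439 had their lowest in cluster 5 and 224 had both. Cluster 6 was nearer to cluster 2 than to cluster 5 for 73.5% of them, and clusters 1, 3, 4 and 7 for 23.9%, 33.6%, 39.2% and 24.3%. Of the 410 genes higher in cluster 5, 182 had their highest level in cluster 5, 102 had their lowest in cluster 2 and 17 had both. Clusters 7, 4, 1, 3 and 6 were nearer to cluster 5 for 56.8%, 55.9%, 47.1%, 40.2% and 19.8% of them. Over all described genes, cluster 2 was closest to cluster 6 (Pearson r = 0.901) and cluster 5 to cluster 1 (r = 0.925), as a description across genes that share libraries.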

How the data were processed

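RNA was read from 7 sorted bone marrow populations and an input sample, with 1 library each. Whole-number counts of reads per Ensembl gene, not normalized, were deposited by the authors with exon lengths. By the labels and Methods, reads were trimmed at Phred 20, aligned with TopHat2 to mm9 in Partek Flow 2.2 and quantified as RPKM; the deposited coordinates are those of GRCm38, since 96.2% of 23308 symbols start within 10 kb of their RefSeq GRCm38.p6 position. The counting tool and strandedness are not given in the sources used here, so reads of overlapping, antisense or near-identical genes cannot be told apart. The labels and Methods differ on strain (C57BL/6J and C57BL/6JJcl), age, tissue preparation and library kit. Symbols came from the supplied name table (32464 of 49315 genes).

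Here 16 genes (3 loci and 13 haemoglobin genes) were dropped, and RPKM was computed from counts, exon length and TMM factors over the 7 sorted libraries (edgeR 4.0.16; factors 1.09 for cluster 2 and 1.21 for cluster 5). Genes were described by the log2 ratio of RPKM + 1, which understates the change of low genes. Folds are ratios of RPKM with exact binomial 95% intervals of the counts. Without replicates no test was made. Named genes were the 20 highest and 20 lowest log2 ratios among genes with a symbol and exons of at least 200 bases (Gm and Rik models, pseudogenes, immunoglobulin and T cell receptor segments and Mir, Snor, Rnu and n-R small RNA genes left out) and members of 45 lists (769 of 771 genes matched). Members and lists were chosen with earlier results of these data known. The computation was tested on simulated data. Alternatives were another pseudocount, scaling, filter, threshold and depth. Some genes of these lists are not reported here by name.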

Additional observations from a re-analysis of the deposited data

Results flagged for a closer look

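Data outside the levels compared held 2 signals above those in the other sorted libraries. The Rn18s-rs5 locus, mmu-mir-689-2 and Lars2 together held 34.8% of all counts in cluster 5, against 10.4% in cluster 2 and at most 1.91% in clusters 1, 3, 4, 6 and 7. Haemoglobin genes held 5.21% of all counts in cluster 5, against 1.01% in cluster 2 and at most 1.10% in clusters 1, 3, 4, 6 and 7.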

How the results depend on the processing

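Of 234 named genes, each recomputed under the 7 to 11 alternatives that gave it a ratio, 232 kept their direction; the exceptions, Ly6c1 and Ptprc, lay near 0. Of 225 past 2-fold, 157 stayed past it in each of these, and 35 of 50 lists kept the sign of their median. Against 877 genes higher in cluster 2, 410 higher in cluster 5 and a median of 0.18, totals of all counts with no gene dropped gave 1914, 199 and 0.54. Totals of kept counts gave a median of 0.034. A pseudocount of 0.1 gave 620 genes higher in cluster 5. At least 10 counts with no RPKM filter gave 683 higher in cluster 5 and a median of 0.066. Both limits required in both libraries gave 503 and 258, and a 4-fold threshold gave 176 and 69, as fewer genes then qualify. The cause of the other shifts was not tested. Thinning cluster 2 to the depth of cluster 5 gave 782 and 418. With a counting interval wholly beyond 2-fold, 718 and 421 genes qualified, of which 697 and 376 were among those above. By exon length, the median was 0.38 from 200 to 1000 bases and 0.08 at 6000 bases or more, without a steady fall between. No paired analysis was possible because there was a single library of each. The shallower cluster 5 library limits what can be said of genes absent from it.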

Other observations

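Enzymes that build and sulfate the sugar chains of proteoglycans leaned to cluster 2. Of 25 genes of glycosaminoglycan synthesis, a list put together after values had been seen, all were described, 11 were more than 2-fold higher in cluster 2 and none in cluster 5, with a median log2 ratio of 0.70 against 0.18 over all genes. Papss2, which makes the sulfate donor, was at 208 RPKM in cluster 2 and 14.7 RPKM in cluster 5 (14.2-fold, 13.0 to 15.5). The chondroitin sulfotransferase Chst11 was at 45.4 and 3.73 RPKM, the sulfate transporter Slc26a2 at 18.1 and 2.52 RPKM and the chain-starting xylosyltransferase Xylt1 at 16 and 3.66 RPKM. Fgfr3, a receptor that restrains chondrocyte division, was at 27.1 and 2.49 RPKM and highest in cluster 6 (60.6 RPKM).

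Complement genes, a second list put together after values had been seen, leaned to cluster 5. Of 18 described, 8 were more than 2-fold higher in cluster 5 and none in cluster 2, with a median of -0.95. Of these 8, C1qb and C1qc are also on the monocyte and macrophage list. The protease C1s was at 10.4 and 47.8 RPKM, its inhibitor Serping1 at 52.6 and 180 RPKM and C3 at 9.05 and 23.5 RPKM. Serping1 was higher still in clusters 1, 3, 4 and 7 (288 to 788 RPKM) and lowest in cluster 6 (9.44 RPKM).

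The predicted genes Gm10800 and Gm10801 on chromosome 2 had lower log2 ratios (-5.20 and -4.85) than any of the named genes. Gm10800 had 214 counts in cluster 2 and 3217 in cluster 5, which gave 13.2 and 523 RPKM, and it was at 174 RPKM in cluster 3 and 7.75 RPKM in cluster 7.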
